A study of Mus musculus with 54 samples.

Results

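Loss of the glucose transporter SGLT1 was examined in diabetic mice that received no drug, by setting SGLT2-positive proximal tubules of Sglt1-/- Akita mice on vehicle (KO Akita veh, 6 samples) against those of Sglt1+/+ Akita mice on vehicle (WT Akita veh, 6 samples). These 12 samples were chosen by their group label, from 48 in the deposited table. All were from male DBA mice, 14 weeks old, that carried the Ins2 Akita/+ allele and had 2 weeks of vehicle, so diabetes is shared by both groups and their labels differ only in the Sglt1 genotype. Each sample pooled 70 to 80 tubules cut by laser capture from kidney sections. Values are TPM, transcript abundance per unit of transcript length with every library scaled to the same sum. Of 55487 genes, 12742 reached a TPM of 1 in 5 or more of the 48 columns, and these were compared. Differences are given as KO minus WT on the log2(TPM + 1) scale with the standard error of the limma model, a scale on which the change of a low gene is understated, and a gene was called at a Benjamini-Hochberg adjusted p under 0.05. No label links a sample to an animal, so p-values measure only the spread between samples. For limma that is the spread within the groups of all 48 columns.

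SGLT1 (Slc5a1) and SGLT2 (Slc5a2) are sodium-coupled transporters that carry filtered glucose from the urine into proximal tubule cells. SGLT2 works in the early segments with high capacity, SGLT1 takes up what remains further along, and GLUT2 (Slc2a2) lets glucose leave the cell towards the blood. In Akita mice a mutant insulin precursor misfolds and damages the beta cells, so the filtered load of glucose is high. The comparison asks what removing SGLT1 changes in the early tubule under that load.

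The 12 libraries were alike between genotypes. Genes with a TPM of 1 or more numbered 9686 ± 1062 in KO Akita veh and 9665 ± 812 in WT Akita veh (SD, n = 6 each; two-sided exact permutation test, p = 0.972). The set of nuclear protein-coding genes was counted without Lars2, here and in the scaling named below. These genes took 8.996 ± 2.72% of the TPM in KO and 8.81 ± 2.07% in WT (exact permutation test, p = 0.881). Single samples ran from 6.17% to 12.7% in KO and from 6.13% to 11.8% in WT. The gene of highest mean TPM took 52.2 ± 8.10% in KO and 52 ± 4.45% in WT. Mitochondrial ribosomal RNA took 23.0 ± 5.93% in KO and 22.7 ± 5.33% in WT. Correlations of log values between a KO and a WT library ran from 0.867 to 0.927, which covers nearly the range within KO (0.865 to 0.925) and within WT (0.860 to 0.923). KO samples 5 and 6 and WT samples 2 and 5 had fewer than 9000 detected genes. Read depth cannot be recovered from TPM and is unknown.

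Of the 12742 genes, 2 were called (0.0157%): Slc5a1 fell and Abhd1 rose. Both lie on chromosome 5, 2.15 Mb apart. At an unadjusted p under 0.05, and with the called genes included, 120 genes were higher in KO (0.942%) and 129 were lower (1.01%), together 249 genes or 1.95% of those tested. With no genotype difference this level would on average give a share of 0.05, so the 249 genes are not an excess. The number of such genes depended on the scaling: it was 627, 628 and 627 after median-of-ratios, quantile and nuclear protein-coding scaling. The smallest adjusted p beyond the called genes was 0.61, that of a further pair of chromosome 5 genes, AI506816 and Gm43694. The median difference of all tested genes was 0.01, with 6751 genes higher and 5991 lower in KO. The 95% interval of the difference lay between -1 and 1 on the log2 scale for 11438 genes, 89.8% of those tested.

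Slc5a1, the targeted gene, lies at chr5:33104219-33162870 on the plus strand (GRCm38). Its TPM was 0 at the lowest, 0 at the median and 0.0886 at the highest in KO Akita veh, against 0.814, 1.32 and 3.55 in WT Akita veh. The gene was listed at 0 in 4 of the 6 KO samples, and the other 2 were below every WT sample. The difference was -1.34 ± 0.20 (adjusted p = 0.000123, limma), and the groups did not overlap (exact permutation test, p = 0.00216, the smallest that 6 samples against 6 allow). The genotype labels and the target's transcript therefore went together in all 12 samples. Even in WT Akita veh the transcript was sparse in these SGLT2-positive segments: it averaged 1.73 ± 1.02 TPM, beside 193 ± 30.6 TPM for Slc5a2 (SD, n = 6).

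Abhd1, a gene of the alpha/beta-hydrolase fold family, lies at chr5:30950066-30955091 on the plus strand. Its TPM was 4.09, 5.36 and 7.55 at the lowest, median and highest in KO Akita veh, against 0.983, 1.16 and 1.43 in WT Akita veh. Every KO sample was above every WT sample, with means of 5.69 ± 1.28 and 1.19 ± 0.198 TPM (SD, n = 6 each), a ratio of 4.77. The difference was 1.59 ± 0.20 (adjusted p = 1.89e-06, limma; exact permutation test, p = 0.00216). GENCODE lists Abhd1 as a processed transcript and RefSeq as a transcribed pseudogene of the C57BL/6J reference, whereas these mice were DBA.

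The Abhd1 exons overlap those of Preb, a factor for export from the endoplasmic reticulum encoded on the minus strand at chr5:30950853-30960361. Of 1758 exonic bases of Abhd1, 1575 are also exonic in Preb. The library kit keeps the strand, but whether it was used when transcripts were quantified is not given in the sources used here, so a transfer of signal between both genes was not tested. Preb itself had 16.1, 24.1 and 32.7 TPM at the lowest, median and highest in KO, against 19.004, 24.1 and 28.8 TPM in WT. Its difference was -0.05 ± 0.20 (95% interval -0.44 to 0.35), and 3 of 6 KO samples were above the WT median. The neighbour Khk, ketohexokinase of fructose metabolism, averaged 55.5 ± 12.4 TPM in KO and 62.1 ± 19.8 TPM in WT, a difference of -0.13 ± 0.18. Of the Abhydrolase family, 17 of 19 listed genes could be tested and Abhd1 alone was called. The other tested members did not reach an unadjusted p under 0.05, and the median of all 17 was -0.01, beside 0.01 for all tested genes.

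**Figure D1:**
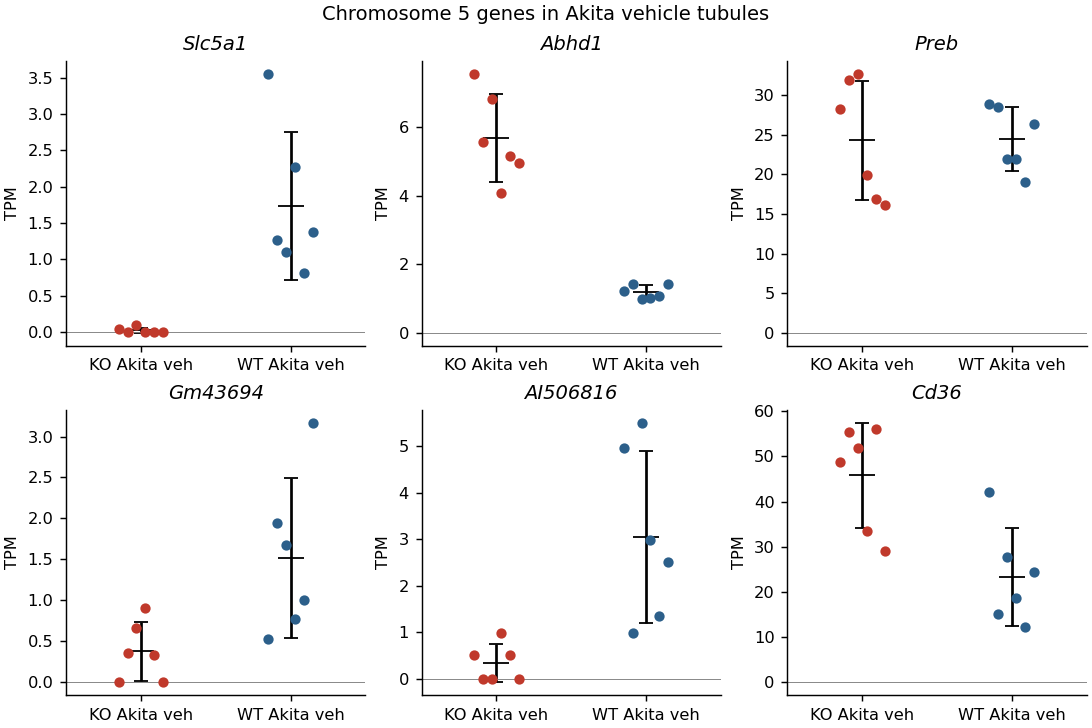
TPM of 6 chromosome 5 genes in each KO Akita veh sample (left, red) and WT Akita veh sample (right, blue), with the mean and SD as black bars (n = 6 each). Slc5a1 and Abhd1 separate the genotypes completely, Gm43694, AI506816 and Cd36 overlap, and Preb has nearly the same mean in both.

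The genes next in order of p were on the same chromosome. All of the 4 smallest p-values of the comparison belonged to genes on chromosome 5 within 10 Mb of Slc5a1, and 6 of the first 10 were on chromosome 5. Within 5 Mb of Slc5a1, 6 of 98 tested genes had an unadjusted p under 0.05 (6.12%), the targeted gene Slc5a1 and Abhd1 among them. Of the window sizes examined, 5 Mb gave the highest share. The share was 5.63% within 2.5 Mb, 5.71% within 10 Mb, 4.62% within 15 Mb and 4.79% within 20 Mb. Within 30 Mb, 9 of 231 genes were at this level. The share was 1.63% on chromosome 5 beyond 30 Mb (10 of 613 genes) and 1.94% on all other chromosomes (226 of 11677 genes). These shares are descriptions, since neighbouring genes are not independent.

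AI506816, a long noncoding RNA 9.41 Mb before Slc5a1, had 0, 0.255 and 0.979 TPM at the lowest, median and highest in KO, against 0.9754, 2.74 and 5.495 TPM in WT. The highest KO sample just passed the lowest WT sample. Its difference was -1.52 ± 0.37 with an adjusted p of 0.61 (limma), so it was not called. Gm43694, 0.474 Mb before Slc5a1, had 0, 0.342 and 0.899 TPM in KO, against 0.526, 1.34 and 3.16 TPM in WT, a difference of -0.83 ± 0.21 with the same adjusted p of 0.61. All 6 KO samples were below the WT median, and 2 were at 0. Gm43694 is an annotation of class TEC, kept for transcripts that await experimental evidence, and it lies within the kinase gene Yes1 on the same strand without sharing exonic bases. Yes1 averaged 3.64 ± 1.25 TPM in KO and 3.45 ± 1.13 TPM in WT, a difference of 0.06 ± 0.21.

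The other 3 genes within 5 Mb at this level were lower in KO and not called. Tyms, thymidylate synthase, averaged 1.05 ± 1.11 TPM in KO and 2.65 ± 2.37 TPM in WT (-0.77 ± 0.29), and without WT sample 1 the difference was -0.49. Nom1, a nucleolar protein gene, averaged 1.12 ± 0.348 and 2.22 ± 1.26 TPM in KO and WT (-0.53 ± 0.20). Emilin1, an extracellular matrix glycoprotein, averaged 1.19 ± 0.617 and 2.17 ± 1.02 TPM in KO and WT (-0.53 ± 0.25). At 15.3 Mb before Slc5a1, Cd36, the fatty acid translocase, had 29.1, 50.4 and 56.0 TPM at the lowest, median and highest in KO, against 12.1, 21.5 and 42.2 TPM in WT. All 6 KO samples were above the WT median, though the ranges overlapped through WT sample 1. The Cd36 difference was 1.01 ± 0.29 with an adjusted p of 1 (limma).

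**Figure D2:**
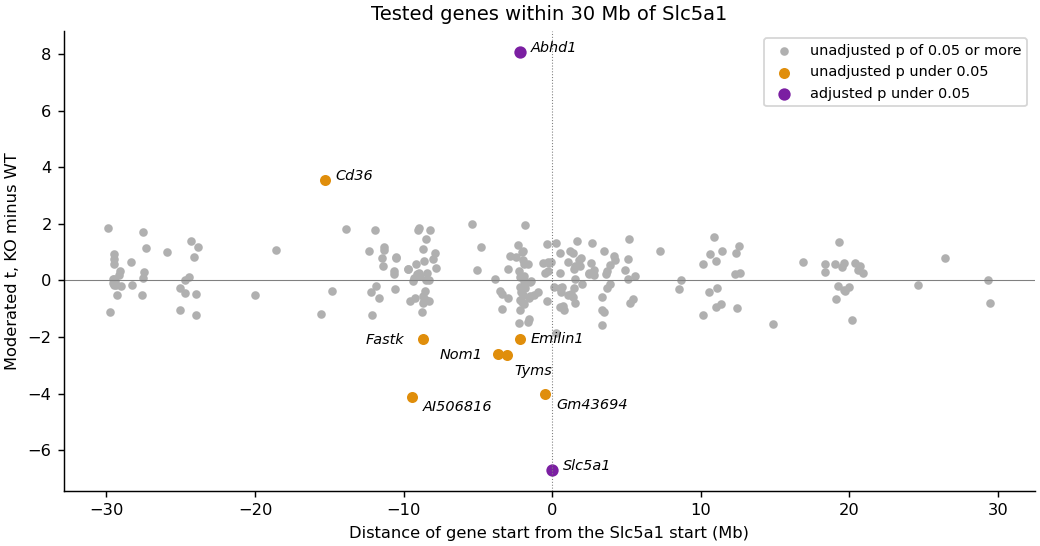
Moderated t of KO minus WT (y axis) against the distance of each tested gene's start coordinate from the Slc5a1 start in Mb (x axis) for 231 genes within 30 Mb on chromosome 5. Abhd1 and Slc5a1 stand apart as the called genes, and AI506816, Gm43694 and Cd36 come next.

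The same genotype contrast exists in 3 other backgrounds, none of which shares samples with the Akita vehicle groups. They are non-diabetic (Ins2+/+) littermates on vehicle (5 KO and 5 WT samples), Akita mice on dapagliflozin, an SGLT2 inhibitor given at 10 mg/kg diet for 2 weeks (6 KO and 5 WT), and non-diabetic mice on dapagliflozin (6 KO and 4 WT). In these backgrounds 3 (0.0235%), 2 (0.0157%) and 2 (0.0157%) genes were called. Abhd1 and Slc5a1 were called in each, and the additional gene in non-diabetic vehicle was Gm43694. Abhd1 was higher in KO by 2.28 ± 0.22, 1.96 ± 0.21 and 2.06 ± 0.22 in non-diabetic vehicle, Akita dapagliflozin and non-diabetic dapagliflozin. For Slc5a1 these differences were -1.64 ± 0.22, -1.48 ± 0.21 and -1.57 ± 0.22. Gm43694 had differences of -1.19 ± 0.22, -0.90 ± 0.22 and -1.08 ± 0.23 in the same order. These 3 genes were the only tested ones with an unadjusted p under 0.05 and the same sign in all 4 backgrounds. Slc5a1 is the targeted gene. In every KO sample Slc5a1 and Gm43694 were below a TPM of 1, so they passed the filter through WT samples alone.

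AI506816 differed less evenly, by -0.50 ± 0.40, -1.28 ± 0.39 and -0.21 ± 0.41, and Cd36 by 0.41 ± 0.31, 0.39 ± 0.30 and 0.97 ± 0.32. In the same order Tyms differed by -0.47 ± 0.32, -1.44 ± 0.31 and 0.21 ± 0.33. For Nom1 the values were 0.13 ± 0.22, -0.15 ± 0.21 and -0.13 ± 0.23, and for Emilin1 0.15 ± 0.28, 0.05 ± 0.26 and -0.34 ± 0.28. Of the 249 genes at an unadjusted p under 0.05 in Akita vehicle, 46.6% had the same sign in non-diabetic vehicle, 53.4% in Akita dapagliflozin and 55.8% in non-diabetic dapagliflozin. Over all tested genes the shares with the same sign were 49.3%, 51.7% and 52.2%. The shares that had the same sign and also an unadjusted p under 0.05 in the other background were 6.43%, 4.42% and 6.02% of the 249 genes, Slc5a1, Abhd1 and Gm43694 among them, beside 2.45%, 1.34% and 3.98% of all tested genes. Every background uses the same estimate of a gene's spread, so a gene with a low estimate can reach this level in several. The higher shares among the 249 genes are therefore descriptions, not independent replication.

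**Figure D3:**
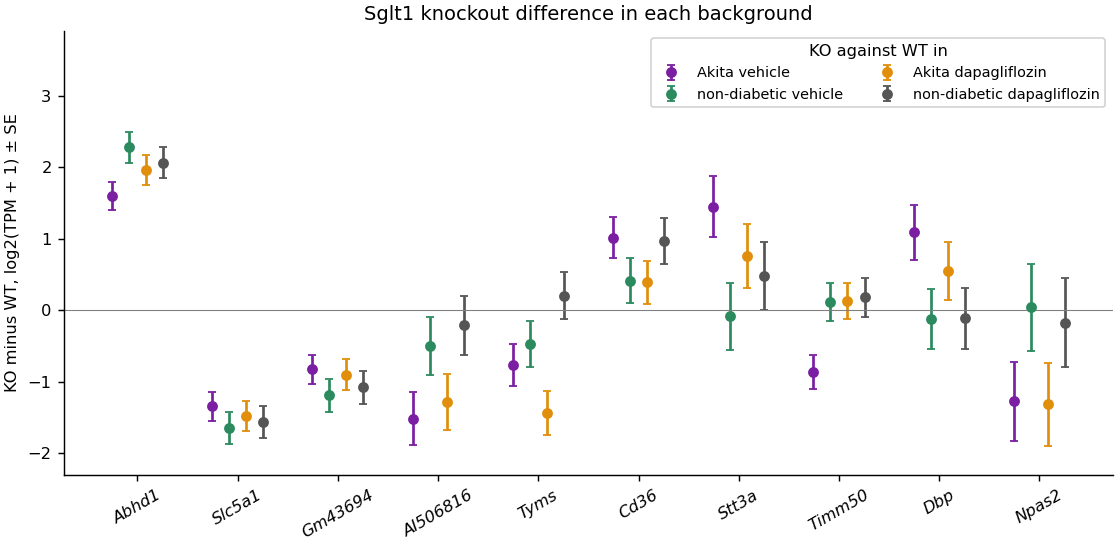
KO minus WT difference (y axis, log2(TPM + 1), with SE) of 10 genes in Akita vehicle (purple), non-diabetic vehicle (green), Akita dapagliflozin (orange) and non-diabetic dapagliflozin (grey). Abhd1, Slc5a1 and Gm43694 lie on the same side in all 4 backgrounds, whereas Timm50 was lower in KO by 0.86 in Akita vehicle and was between 0.11 and 0.18 higher in the others, with none of its differences called.

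Whether the knockout difference depends on diabetes or on the drug was tested directly. The difference between Akita vehicle and non-diabetic vehicle was called for 0 genes (0%), with 406 at an unadjusted p under 0.05, 109 positive and 297 negative (limma). The median of this difference over all tested genes was -0.08. Between Akita vehicle and Akita dapagliflozin 0 genes were called (0%), with 246 at an unadjusted p under 0.05, 147 positive and 99 negative. For Abhd1 the difference from non-diabetic vehicle was -0.68 ± 0.29 (unadjusted p = 0.024, limma), so Abhd1 is among the 406 genes. That from Akita dapagliflozin was -0.37 ± 0.29 (unadjusted p = 0.20, limma), and neither was called. Slc5a1 had 0.30 ± 0.30 and 0.14 ± 0.29. The positive differences from non-diabetic vehicle with the smallest p were those of Fdx1 (1.08 ± 0.32), Tceanc2 (1.72 ± 0.54) and Mapre3 (0.79 ± 0.28), and the negative ones those of Evl (-1.13 ± 0.29), Cwf19l1 (-1.17 ± 0.34) and Itgb6 (-1.45 ± 0.43). From Akita dapagliflozin they were those of Trp53i13 (1.20 ± 0.34), Pkia (1.02 ± 0.30) and Spc24 (1.32 ± 0.41), and those of Hps1 (-1.52 ± 0.44), Pfdn6 (-1.36 ± 0.39) and Arrdc1 (-1.21 ± 0.38).

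Transcripts of the other glucose transporters were not called. Of the SLC5 family, 9 of 11 listed members could be tested, and Slc5a1 was the single member called, none being higher at an unadjusted p under 0.05. Slc5a2 had 118, 182 and 234 TPM at the lowest, median and highest in KO, against 146, 198 and 226 TPM in WT. The ranges lay over each other, and the difference was -0.09 ± 0.25 with a 95% interval from -0.60 to 0.41. Slc5a10, a mannose and fructose cotransporter, averaged 36.7 ± 11.6 TPM in KO and 36.5 ± 15.8 TPM in WT. Slc5a12, a lactate cotransporter of the proximal tubule, averaged 63.4 ± 21.2 and 54.002 ± 13.9 TPM in KO and WT. Slc5a11, a myo-inositol cotransporter, averaged 4.68 ± 1.72 and 6.01 ± 2.43 TPM. Slc5a4a and Slc5a4b were listed at 0 in all 12 samples.

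Among facilitative transporters and partners of SGLT2, 10 of 13 listed genes were tested, none was called and none reached an unadjusted p under 0.05. Slc2a2 had 9.17, 11.8 and 22.004 TPM at the lowest, median and highest in KO, against 11.4, 15 and 19.6 TPM in WT, a difference of -0.18 ± 0.24 (95% interval -0.66 to 0.29). Slc2a5, the fructose transporter GLUT5, averaged 13.9 ± 4.91 TPM in KO and 15.8 ± 5.31 TPM in WT. Pdzk1ip1, which encodes the SGLT2 accessory protein MAP17, had means of 43.4 and 42.8 TPM in KO and WT, a difference of 0.00 ± 0.22. At the transcript level a doubling or halving of Slc5a2 and Slc2a2 therefore lay outside the 95% intervals, while smaller changes could not be told from the spread.

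Genes that make or use glucose were likewise not called. All 17 gluconeogenesis genes were tested, 8 higher and 9 lower, with a median of -0.03. Pck1, the cytosolic phosphoenolpyruvate carboxykinase, had 160, 257 and 448 TPM at the lowest, median and highest in KO, against 121, 273 and 410 TPM in WT (0.06 ± 0.31). G6pc, the glucose-6-phosphatase that releases free glucose, had 22.7, 37.8 and 59.8 TPM in KO, against 15.8, 26.1 and 43.4 TPM in WT. Of 6 KO samples 5 were above the WT median of G6pc, but the ranges overlapped and the difference of 0.52 ± 0.30 had an adjusted p of 1 (limma). In glycolysis, 18 of 20 listed genes were tested, 15 of them lower in KO, and 1 reached an unadjusted p under 0.05. That gene was Slc16a1, the monocarboxylate transporter MCT1, with 1.32 ± 0.408 TPM in KO and 2.41 ± 1.21 TPM in WT. None of the 12 genes of the fructose and polyol pathway reached that level, and their median was -0.09.

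**Figure D4:**
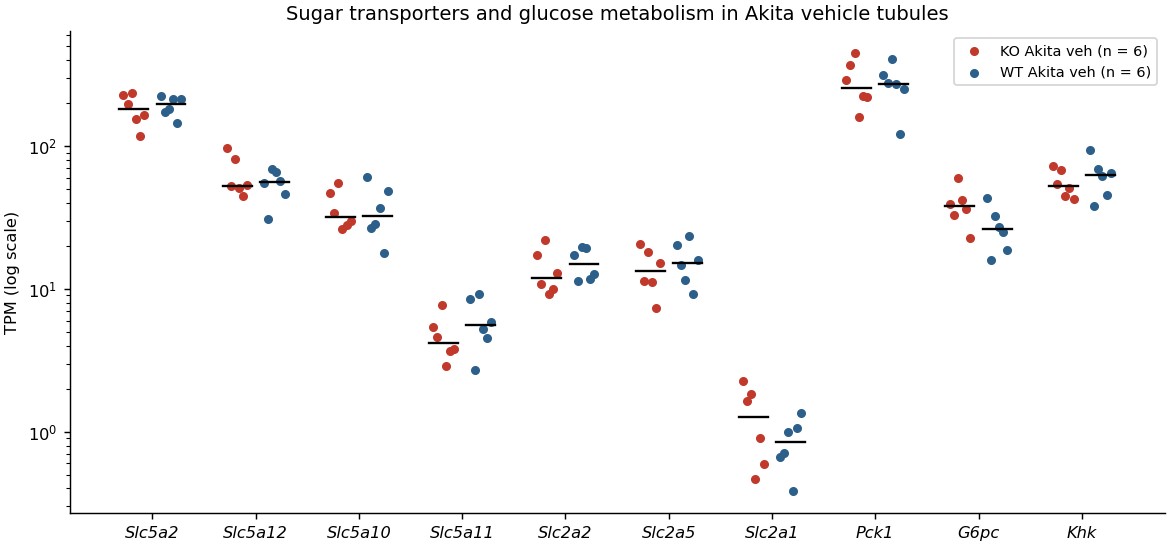
TPM on a log axis for 10 sugar transporter and glucose metabolism genes in each KO Akita veh sample (red, left of each pair) and WT Akita veh sample (blue), with medians as black lines. The 2 groups overlap for every gene shown, Slc5a2 at 118 to 234 TPM in KO and 146 to 226 TPM in WT.

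The captured cells carried the transcripts of early proximal tubule in both genotypes. All 20 identity genes were tested, none reached an unadjusted p under 0.05, and their summed TPM ranged from 1617 to 3340 in KO and from 1681 to 2830 in WT. Slc34a1, the main phosphate transporter, averaged 612 TPM in KO and 632 TPM in WT. Hnf4a, a master regulator of this cell type, averaged 54.6 and 55.5 TPM in KO and WT. Of the late proximal tubule list, 12 of 14 genes were tested and 11 were higher in KO, with a median of 0.15 and none called. Slc7a13, an aspartate and glutamate transporter of the last proximal segment, had 13.4, 21.8 and 51.9 TPM at the lowest, median and highest in KO, against 11.2, 13.2 and 25.4 TPM in WT (0.58 ± 0.30), and without KO sample 3 the difference was 0.36. The list of androgen-controlled or male-biased kidney genes also holds Slc7a13. Of its 15 tested genes 14 were higher in KO, with a median of 0.26 and none called. In such pooled samples a change in the number of cells of a type and a change in RNA per cell cannot be told apart.

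Markers of other cell types were present at low levels, and none was called. The summed TPM of 7 thick ascending limb genes ranged from 22.6 to 149 in KO and from 10.5 to 104 in WT, with a median difference of 0.50 over 5 tested genes, the highest median of the 35 lists. Umod, the uromodulin gene that defines this segment, averaged 17.1 TPM in KO and 11.1 TPM in WT, and Cldn16 was at 0 in all KO samples and in 4 WT samples. The 12 genes of distal tubule and collecting duct summed to between 13.7 and 104 TPM in KO and between 20.8 and 146 TPM in WT. Of these genes 10 were tested, 3 higher and 7 lower in KO, with a median difference of -0.15. Calb1, a calcium-binding protein of the distal tubule, had the lowest difference among them. It had 3.10 ± 1.11 TPM in KO and 7.31 ± 3.81 TPM in WT (-0.89 ± 0.39, adjusted p = 1, limma). Podocyte genes summed to 1.84 to 12.1 TPM in KO and 3.99 to 18.3 TPM in WT, and all 6 tested members were lower in KO. Endothelial genes summed to 21.6 to 68.4 TPM in KO and 31.1 to 103 TPM in WT, stromal genes to 3.88 to 70.1 and 6.78 to 50.953 TPM, and leukocyte genes to 5.87 to 78.1 and 5.37 to 25.959 TPM. The median sums in KO and WT were 7.56 and 7.71 TPM for podocyte genes and 62.4 and 50.7 TPM for endothelial genes. They were 17.4 and 16.9 TPM for stromal genes and 22.6 and 22.2 TPM for leukocyte genes. Erythrocyte genes summed to 0.132 to 9.03 TPM in KO and 0.774 to 7.56 TPM in WT. Their part in any other difference was not tested.

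Across 35 gene lists with 577 genes, 527 of which were tested, 33 lists held no called gene, and the exceptions were the lists that hold Slc5a1 and Abhd1. Over all listed genes 16 had an unadjusted p under 0.05, 7 higher and 9 lower in KO, which is 3.04% of those tested, beside 1.95% of all tested genes, with both called genes among them. Transport genes for sodium, bicarbonate and acid (18 tested), organic ions and urate (21 tested), and amino acids and peptides (18 tested) had none at that level. Nuclear respiratory chain genes (25 tested), cytosolic ribosomal proteins (27), mitochondrial genome transcripts (13), heat shock chaperones (16), hypoxia genes (16), immediate early genes (16) and insulin and FOXO signalling genes (21) also had none.

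In fatty acid oxidation Cd36 was the single gene at that level of 30 tested, and in lipid synthesis and lipoproteins Scd1, Acacb and Apob were at that level of 22 tested, with a median over all 22 of -0.04. Scd1, a fatty acid desaturase, had 0.674, 0.829 and 2.64 TPM at the lowest, median and highest in KO, against 0, 0.207 and 0.610 TPM in WT (0.70 ± 0.33, adjusted p = 1, limma). Every KO sample of Scd1 was above every WT sample, as for 3 tested genes in all (0.0235%), the others being Abhd1 and Mettl7a2. In the opposite direction 3 genes did not overlap (0.0235%), Slc5a1, Gm19195 and Tmem213, and Tmem213 averaged 0.333 ± 0.194 TPM in KO and 1.51 ± 1.09 TPM in WT. Acacb, an acetyl-CoA carboxylase, averaged 0.565 ± 0.503 TPM in KO and 1.51 ± 1.35 TPM in WT, and Apob, the main protein of lipoproteins, 6.05 ± 3.81 and 9.66 ± 3.78 TPM.

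Stress and injury genes showed little. Of 24 injury genes 16 could be tested, none reached an unadjusted p under 0.05, and the kidney injury marker Havcr1 averaged 0.0283 TPM in KO and 0.239 TPM in WT, too low to test. Of 19 tested genes for chaperones of the endoplasmic reticulum and the unfolded protein response, 17 were higher in KO, with a median of 0.16 and none called. Xbp1, a transcription factor of that response, had 8.13, 13.7 and 22.5 TPM at the lowest, median and highest in KO, against 4.23, 8.0038 and 18.1 TPM in WT (0.65 ± 0.25, adjusted p = 1, limma). All 6 KO samples were above the WT median of Xbp1, but the ranges overlapped. Gclm, a subunit of the enzyme that starts glutathione synthesis, averaged 12.6 ± 5.30 TPM in KO and 7.67 ± 2.84 TPM in WT, and was the single one of 22 tested NRF2 and glutathione genes at an unadjusted p under 0.05. Pdhb, a pyruvate dehydrogenase subunit, was the single one of 28 in pyruvate entry and the TCA cycle, at 10.9 ± 3.61 TPM in KO and 15.1 ± 3.36 TPM in WT. Cyp27b1, which makes active vitamin D, was that of 11 in phosphate and vitamin D handling, at 0.305 ± 0.228 and 1.05 ± 1.04 TPM in KO and WT.

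Clock genes varied widely between samples of 1 genotype. Dbp, a clock output gene whose transcript cycles over the day, had 11.1, 28.1 and 39.2 TPM at the lowest, median and highest in KO, against 4.26, 12.8 and 25.8 TPM in WT. The WT values lay in separate ranges, 4.26 to 4.68 TPM in samples 1, 4 and 5 and 20.9 to 25.8 TPM in samples 2, 3 and 6, and KO samples lay above the lower range. Npas2, a clock activator that peaks at another time of day, was at 20.4, 10.8 and 8.0011 TPM in WT samples 1, 4 and 5 and at 0.0576, 1.94 and 2.77 TPM in WT samples 2, 3 and 6. In KO it was at 7.46 TPM in sample 4 and between 0.0277 and 1.43 TPM in the other 5. The WT samples low in Dbp were thus those high in Npas2, and sample 4 held the lowest Dbp and the highest Npas2 of KO. The differences were 1.09 ± 0.38 for Dbp and -1.27 ± 0.55 for Npas2, each with an adjusted p of 1 (limma), and 13 of 16 tested clock genes were higher in KO with a median of 0.19. The labels used here give no hour of tissue collection.

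**Figure D5:**
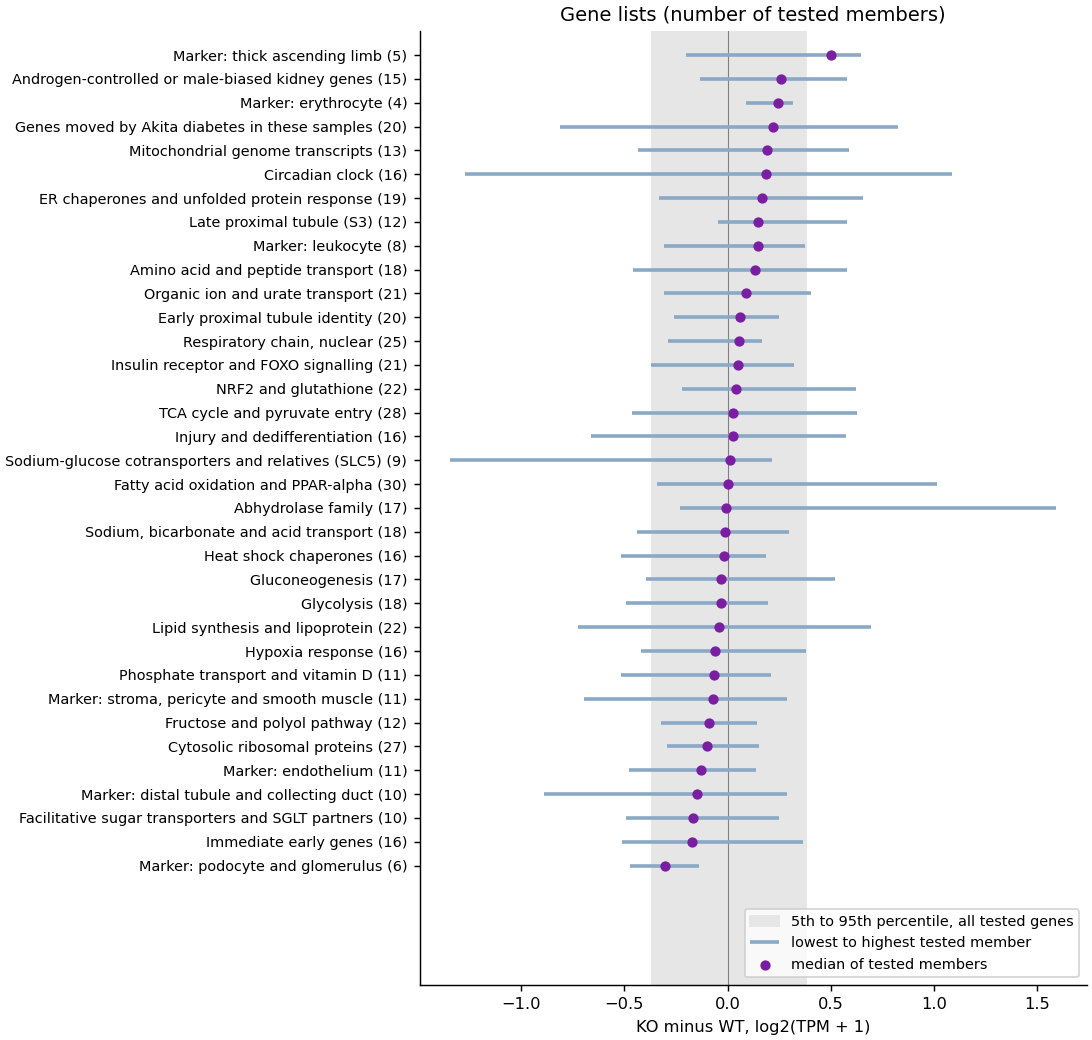
KO minus WT difference on the log2(TPM + 1) scale (x axis) for 35 gene lists, with the median of tested members (purple point), their lowest to highest value (blue line) and the 5th to 95th percentile of all tested genes (grey band, -0.37 to 0.38). List medians run from -0.30 to 0.50, and the ends of the long lines include Slc5a1, Abhd1, Npas2, Dbp and Cd36.

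With predicted genes and symbols made of an identifier set aside, the 12 uncalled genes with the smallest p on each side also overlapped between genotypes, and each had an adjusted p of 1 (limma). On the higher side, Stt3a, a catalytic subunit of N-glycosylation, had 7.31, 15.6 and 31.9 TPM at the lowest, median and highest in KO, against 3.10, 4.77 and 8.63 TPM in WT (1.45 ± 0.43). Only KO sample 4 was below the highest WT sample. Gosr1, a Golgi SNARE protein, averaged 6.13 ± 1.85 TPM in KO and 2.4977 ± 1.65 TPM in WT. Hdc, the enzyme that makes histamine, averaged 15.6 ± 9.27 TPM in KO and 6.83 ± 2.00 TPM in WT. The remaining genes on that side were Psmd9, St8sia6, Ppapdc3, Ang, Nudt6, Cebpg and Ccdc64, with differences between 0.54 and 0.89, beside Cd36 and Dbp.

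On the lower side, Timm50, part of the protein import machinery of the mitochondrial inner membrane, had 1.52, 3.56 and 4.84 TPM at the lowest, median and highest in KO, against 4.53, 6.26 and 9.06 TPM in WT (-0.86 ± 0.24). All 6 KO samples were below the WT median of Timm50. Phb, a prohibitin of the same membrane, averaged 11.2 ± 5.9965 TPM in KO and 18.977 ± 4.13 TPM in WT. Cyr61, a matricellular protein, averaged 4.68 ± 2.75 and 10.4 ± 4.34 TPM in KO and WT, and Itgb6, an epithelial integrin, 8.06 ± 1.78 and 16.1 ± 7.34 TPM. Chmp6, Nkain1, Pfdn6, Epha2, Kdm1b, Mlkl, Ints2 and Mid1ip1 were the others of the 12, with differences between -0.82 and -0.59. In non-diabetic vehicle tubules Timm50 differed by 0.11 ± 0.26, Stt3a by -0.09 ± 0.47 and Itgb6 by 0.62 ± 0.32.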

How the data were processed

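RNA of laser-captured SGLT2-positive tubules was sequenced from stranded libraries made of 0.5 ng total RNA, per the labels' protocols. The deposited table holds TPM for 48 of 54 labelled samples; the other 6 were not analysed here. Its name says that outliers were taken out; the criterion is not stated, and both Akita vehicle groups kept all 6 samples, while other groups, which share the estimate of spread, kept 4 to 6. Per the submitters' processing notes, GRCm38, Salmon and MultiQC 1.8 were used. For Salmon, the release, annotation and strand setting: not given in the sources used here. Groups came from the labels. Values were fitted as log2(TPM + 1) with limma 3.58.1 (R 4.3.3; 9 groups, 39 residual degrees of freedom, trended and robust moderation), which was tested on simulated data; p-values are two-sided and adjusted over all 12742 genes. Positions are GENCODE's for GRCm38. The fitted design takes no replicate block. The members, gene lists and naming rule (targets, called genes, the 12 uncalled genes of smallest p on each side, without predicted genes, clones, pseudogenes or identifier symbols, leading list members, neighbours within 5 Mb, leading differences) were chosen with earlier results of these data known; 1 list, of genes moved by Akita diabetes in these samples, was picked on the same WT samples. Of its 20 genes 14 were higher in KO and none was called. AI506816, Apob, Gm19195, Havcr1, Hnf4a, Khk, Mettl7a2, Preb, Slc2a5, Slc5a10, Slc5a11, Slc5a4a, Slc5a4b, Tmem213 and Yes1 fall outside that rule and were named after their values were seen. Alternatives changed pseudocount, filter, scaling, model, weights and samples.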

Additional observations from a re-analysis of the deposited data

Results flagged for a closer look

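Among the 152 groups of 6 values examined (76 genes in both genotypes), 4 held 1 sample far from the rest, 2.63%; chance gives about 1 in 20. In KO sample 3 Scd1 was at 2.64 TPM, with the other KO samples between 0.674 and 0.992 TPM. Epha2 was at 2.53 TPM in the same sample and between 0.422 and 0.990 TPM in the others. Mettl7a2 was at 0.713 TPM in KO sample 4 and between 0.409 and 0.505 TPM in the rest. Gm19195 was at 0.383 TPM in KO sample 5 and at 0 in the other 5.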

How the results depend on the processing

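No paired analysis was possible because the labels give no replicate numbers that link KO and WT samples. Across 25 alternatives Abhd1 was called in 25 (1.52 to 2.15) and Slc5a1 in 24 (-3.79 to -1.18). The exception kept only genes with a TPM of 5 in 5 columns, which removes Slc5a1 and leaves 1 gene called. With only the compared groups fitted, the adjusted p was 0.00267 for Abhd1 and 0.0137 for Slc5a1 (limma). Both tested differences called 0 genes under every alternative. In the main comparison the adjusted p of AI506816 fell to 0.063 at the lowest, and that of Gm43694 to 0.137 (limma). Of 1868 values of 76 named genes, none crossed the threshold and 24 changed sign. With sample weights Yes1 was at -0.036, Slc5a10 at -0.13, Pck1 at -0.17 and Pkia at -0.053. Without the 4 libraries under 9000 genes Preb was at 0.16, Slc5a10 at -0.10 and Pck1 at -0.050. Leaving out 1 sample gave Preb -0.14 to 0.054, Khk -0.26 to 0.0017, Yes1 -0.056 to 0.16, Slc5a2 -0.17 to 0.025, Slc5a10 -0.12 to 0.23, Pck1 -0.16 to 0.21 and Pkia -0.056 to 0.21. Genes at an unadjusted p under 0.05 numbered 249 as reported, but 106 under the strict filter, 769 without a filter, 627, 628 and 627 after median-of-ratios, quantile and nuclear protein-coding scaling, 515 with genes detected as covariate, 440 with sample weights, 408 without the 4 libraries, and at most 374 without 1 sample. The cause was not tested. Depth is unknown, so zeros of low genes cannot be weighed.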
